A study of Mus musculus with 11 samples.

Results

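ATF4 is a transcription factor of the integrated stress response, and its mRNA and those of 9 genes around it were followed here in cultured mouse mesenchymal stem cells (MSCs). The 10 genes were taken by name from the count table, which listed 28222 genes. They were 3 transcription factors (Atf4, Atf5 and Ddit3), 3 feedback and effector genes (Trib3, Sesn2 and Chac1), the asparagine synthetase gene Asns, and 3 genes of serine synthesis and use (Phgdh, Psat1 and Shmt2). All 10 passed the filter on low counts in each comparison.

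Polyadenylated RNA had been sequenced in 11 libraries from MSCs, bone stromal cells able to become osteoblasts or adipocytes. There were 6 libraries from young mice aged 3 to 5 months and 5 from old mice aged 18 to 22 months. Every library, young or old, came from cells grown at 2% oxygen in αMEM, a basal medium. By the labels, the libraries fell into 3 batches, with 4 young ones in batch A, 2 of each age in batch B and 3 old ones in batch C. The labels did not say what the batches differed in, nor the strain, sex, passage or number of mice in a library, so that p-values measure the spread between these libraries, which may be technical. The study's methods, written for an oxygen comparison, named male C57BL/6N mice and described sorting of bone cells lacking CD45 and Ter-119 and carrying Sca-1 and CD140a. The mRNAs of both positive markers were present in all libraries, Ly6a (Sca-1) at 269 to 778 and Pdgfra (CD140a) at 109 to 287 CPM (counts scaled to library size, with TMM factors). Ptprc, which encodes CD45, was at 3.46 to 22.2 CPM. The library totals lay between 11969336 and 20315934 counts, and the lowest count of any of the 10 genes in a library was 264.

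When amino acids run short, unfolded proteins accumulate in the endoplasmic reticulum (ER) or other stresses act, kinases phosphorylate the translation factor eIF2α. General translation then slows while the ATF4 protein is made more efficiently, and ATF4 switches on genes for amino acid synthesis, import and tRNA charging. ATF4 is thus set largely at translation, and the level of its mRNA does not give the amount of its protein. In cells of the osteoblast lineage ATF4 is known for its part in bone formation and in the supply of amino acids for collagen.

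Many genes that respond to ATF4 carry a composite element bound by ATF4 with a C/EBP partner. The 8-letter form TGATGNAA, where N is any base, was searched on both strands of promoter windows of 300 bases from RefSeq (GRCm38.p6), from 250 bases before to 50 bases after the annotated start. All 10 genes had a window, and 3 held the motif, compared with 4.51% of 27025 genes. The 3 matches are shown because they are the only ones among the 10 genes. Each is written 5′ to 3′ on the strand of the gene, with the match in capitals.
Asns: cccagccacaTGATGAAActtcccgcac
Chac1: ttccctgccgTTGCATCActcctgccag
Trib3: tagctcaggtTTACATCAgccgggcggg
The Asns stretch lies at chr6:7693215-7693242 on the minus strand, with the first matched base 23 bases before the start. The Chac1 stretch lies at chr2:119351039-119351066 on the plus strand, with the first matched base 193 bases before the start, and it matches the reverse complement. The Trib3 stretch lies at chr2:152344029-152344056 on the minus strand, with the first matched base at base 15 from the start, also as the reverse complement. These positions are counted from the RefSeq start. The gene annotation used for the levels starts Trib3 at base 152344032 and Asns at base 7693254, in both cases on the other side of the match. A match describes the letters in the window and does not show a binding site.

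Levels of different genes were compared per length. As mean RPKM (counts scaled to exon length and library size) over the 11 libraries, the level of Atf5 was 177 ± 49.4 (SD, n = 11), that of Atf4 97.9 ± 21.1, that of Asns 91.8 ± 36.4 and that of Phgdh 89.8 ± 34.0. The next levels were 68.2 ± 34.1 RPKM for Psat1, 52.1 ± 18.1 for Shmt2 and 51.0 ± 23.0 for Trib3. The lowest were Sesn2 at 26.5 ± 6.76, Ddit3 at 24.3 ± 6.60 and Chac1 at 24.1 ± 8.72 RPKM. The SDs span all groups and thus hold the differences between batches. Among neighbours in this order, the upper gene exceeded the lower in all 11 libraries for Atf5 over Atf4 (mean log2 difference 0.84) and Phgdh over Psat1 (0.49). For the other 7 neighbouring pairs the upper gene was the higher one in 5 to 8 of 11 libraries, so no single order held throughout. In part the order changed with batch. Trib3 exceeded Sesn2 in every batch A and B library and lay below it in every batch C library (group means 15.6 and 19.8 RPKM). Psat1 exceeded Shmt2 in every batch B library and lay below it in every batch C library. The value depended on the length used: with the longest transcript in place of all exons, Psat1 was at 110.8, Shmt2 at 70.8 and Ddit3 at 42.9 RPKM, and Asns rather than Atf4 ranked second. Phgdh then kept the higher mean, at 117.9 RPKM, but Psat1 exceeded it in every batch B library.

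**Figure D1:**
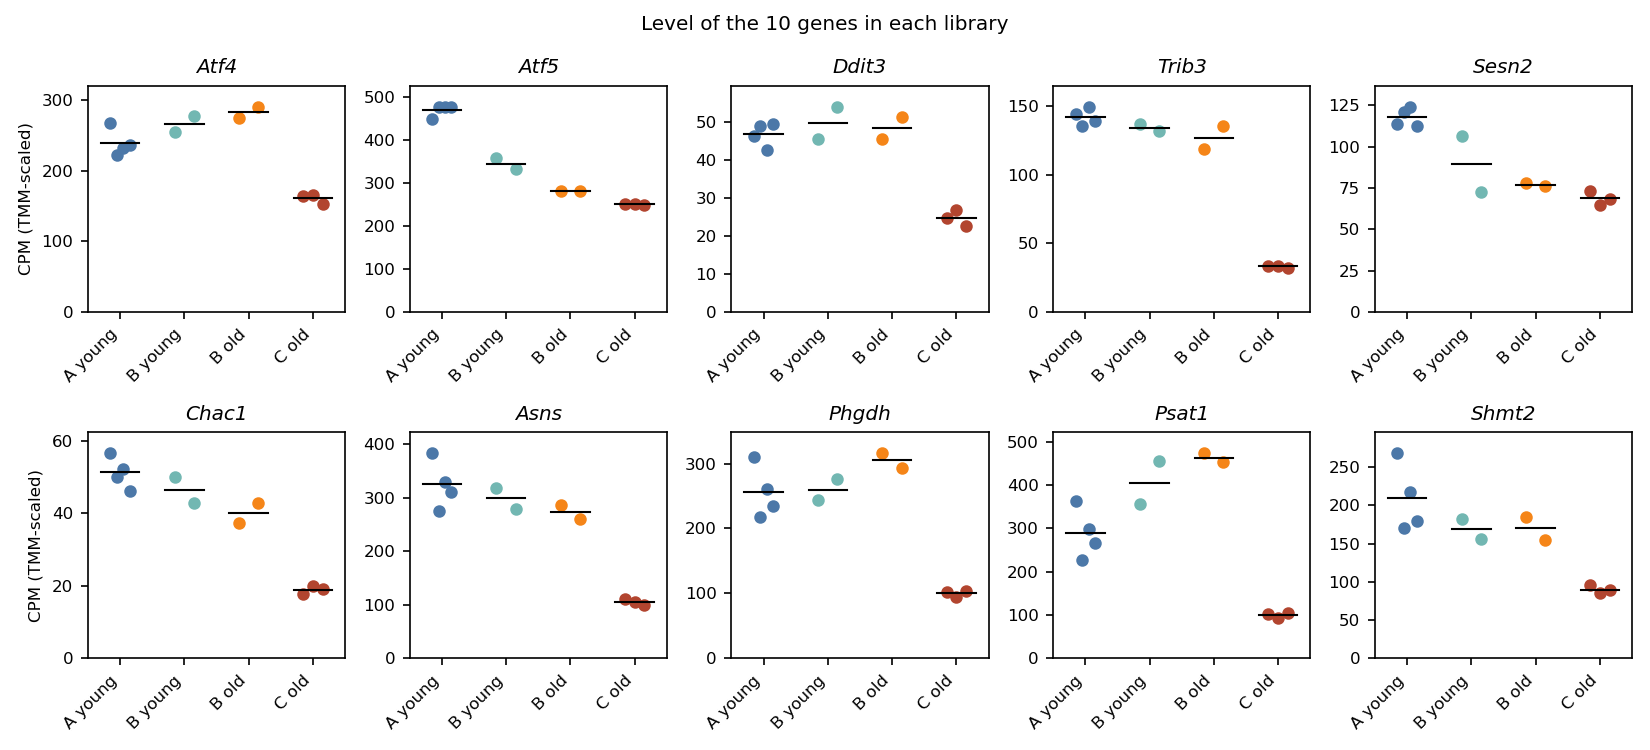
CPM (TMM-scaled, linear axis from 0) of the 10 genes in each of the 11 libraries, with 1 panel per gene. Points are libraries, coloured by age and batch group, and bars are group means. The 3 batch C old libraries sit below all batch A young and batch B old libraries in all 10 panels, from a narrow gap in Sesn2 and Atf5 to a wide one in Psat1 and Trib3. Over all tested genes, 33.7% had every batch C old library below every batch A young library. The share against batch B old was not counted, so the gap to batch B old does not set the 10 genes apart.

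The first comparison addressed age. Since age and batch could be told apart only within batch B, the age effect was estimated from all 11 libraries in a model that also held batch. None of the 10 genes passed the threshold in this fit (edgeR, adjusted p below 0.05), in which 2.23% of the 16132 tested genes were called, 0.694% as higher and 1.54% as lower in old MSCs. At an unadjusted p below 0.05 there was 1 gene, Atf5, while 16.1% of all tested genes reached that level. DESeq2 called 1 of the 10, again Atf5 (3.97% of all genes), and limma-trend 0. Without batch B young replicate 2, edgeR called 2, Atf5 (adjusted p = 0.0460) and Sesn2 (adjusted p = 0.0169), in a fit that called 12% of all genes. The median log2 fold change of the 10 genes, old against young, was -0.051, beside 0.0044 for all tested genes.

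Among the transcription factors, Atf5, a close relative of ATF4 that is itself translated under eIF2α phosphorylation, measured 356 and 332 CPM in the young and 282 and 282 CPM in the old libraries of batch B. Both old libraries lay below both young ones. The log2 fold change was -0.28 (SE 0.10, 95% interval -0.49 to -0.064, edgeR adjusted p = 0.175), and -0.27 in DESeq2 with an adjusted p of 0.0373. Atf4 itself was at 256 and 278 CPM in young and 275 and 291 CPM in old libraries. These ranges overlapped, with a log2 fold change of 0.10 (SE 0.11, 95% interval -0.15 to 0.34, edgeR adjusted p = 0.724). Ddit3, which encodes the stress factor CHOP, was at 45.3 and 54.0 CPM in young and 45.3 and 51.1 CPM in old libraries, and its log2 fold change of -0.031 (SE 0.13) had no stable sign, being 0.030 when libraries were scaled by total counts.

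The serine genes had positive log2 fold changes, none of which passed the test. Phgdh, which catalyses the first step from the glycolytic intermediate 3-phosphoglycerate towards serine, was at 243 and 276 CPM in young and 316 and 293 CPM in old libraries of batch B, again without overlap. Its log2 fold change was 0.24 (SE 0.14, 95% interval -0.067 to 0.55, edgeR adjusted p = 0.439). Psat1, the aminotransferase of the following step, was at 356 and 455 CPM in young and 474 and 452 CPM in old libraries, which overlapped. Its log2 fold change was 0.20 (SE 0.17, 95% interval -0.17 to 0.57, edgeR adjusted p = 0.604). Shmt2, the mitochondrial enzyme that splits serine into glycine and a one-carbon unit, was at 182 and 155 CPM in young and 185 and 155 CPM in old libraries, with a log2 fold change of 0.021 (SE 0.17, 95% interval -0.35 to 0.39).

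The other 4 genes had log2 fold changes between -0.21 and -0.071. Sesn2, whose product restrains mTORC1, gave -0.21 (SE 0.14), with 106 and 72.4 CPM in the 2 young libraries and 77.9 and 76.1 CPM in the 2 old ones. The young libraries thus lay on either side of the old pair, and the sign turned to 0.089 without young replicate 1. Chac1, which degrades glutathione, gave -0.20 (SE 0.13), Asns -0.12 (SE 0.14) and Trib3, a pseudokinase that dampens ATF4, -0.071 (SE 0.10), with edgeR adjusted p-values of 0.446, 0.712 and 0.780. Of the 10 genes, 2 (Atf5 and Phgdh) did not overlap between ages within batch B, as was the case for 39.8% of all tested genes. Without the batch term, 3 of the 10 were called, all lower in old (Atf5 -0.68, Sesn2 -0.57 and Chac1 -0.84), in a fit that called 8.65% of all genes as lower and where age and batch cannot be told apart.

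A wider list of 74 genes of the same response was read alongside, grouped by role: other transcription factors, eIF2α kinases and phosphatases, brakes on translation and TOR, serine and one-carbon enzymes, other amino acid synthesis enzymes, amino acid transporters, cytosolic tRNA synthetases, and secreted and other targets. Of the 55 with a promoter window, 13 (23.6%) held the motif. For age, 1 of 74 was called. This was Ddit4, an inhibitor of mTORC1 that is induced by low oxygen and several stresses, which was higher in old MSCs of batch B, at a mean of 122 CPM against 88.7 CPM in young (log2 fold change 0.46, SE 0.11, 95% interval 0.24 to 0.69, edgeR adjusted p = 0.0327). Of the 74, 0 were called by edgeR without batch A young replicate 3, batch C old replicate 2, batch B young replicate 1 or either batch B old library, and 12 without batch B young replicate 2. In the fit of all libraries 14 of the 74 had an unadjusted p below 0.05, near the share of 16.1% over all genes, and the median log2 fold change over the 74 genes was -0.047. Markers of cell types differed in the same contrast. Of 7 mesenchymal sorting and stromal markers 2 were called lower in old MSCs, Pdgfra (-0.86, SE 0.15, edgeR adjusted p = 0.00590) and Nt5e (-1.34, SE 0.25, edgeR adjusted p = 0.00932), and 6 of 7 had a negative log2 fold change, with a median of -0.31. All 10 leukocyte and all 8 dividing-cell genes had a positive log2 fold change, with medians of 0.68 and 0.65 and 0 calls in either list. The summed leukocyte level was 339 to 685 CPM in young and 681 to 983 CPM in old libraries of batch B, and the dividing-cell sum 122 to 140.0 and 178 to 257 CPM. The mesenchymal and stromal sum was 44859 and 25487 CPM in batch B young replicates 1 and 2. In batch B old replicates 1 and 2 it was 23557 and 24733 CPM, so young replicate 2 lay close to the old libraries. The part of these markers in the values above was not tested, and in bulk RNA fewer cells of a type and less RNA per cell cannot be told apart.

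**Figure D2:**
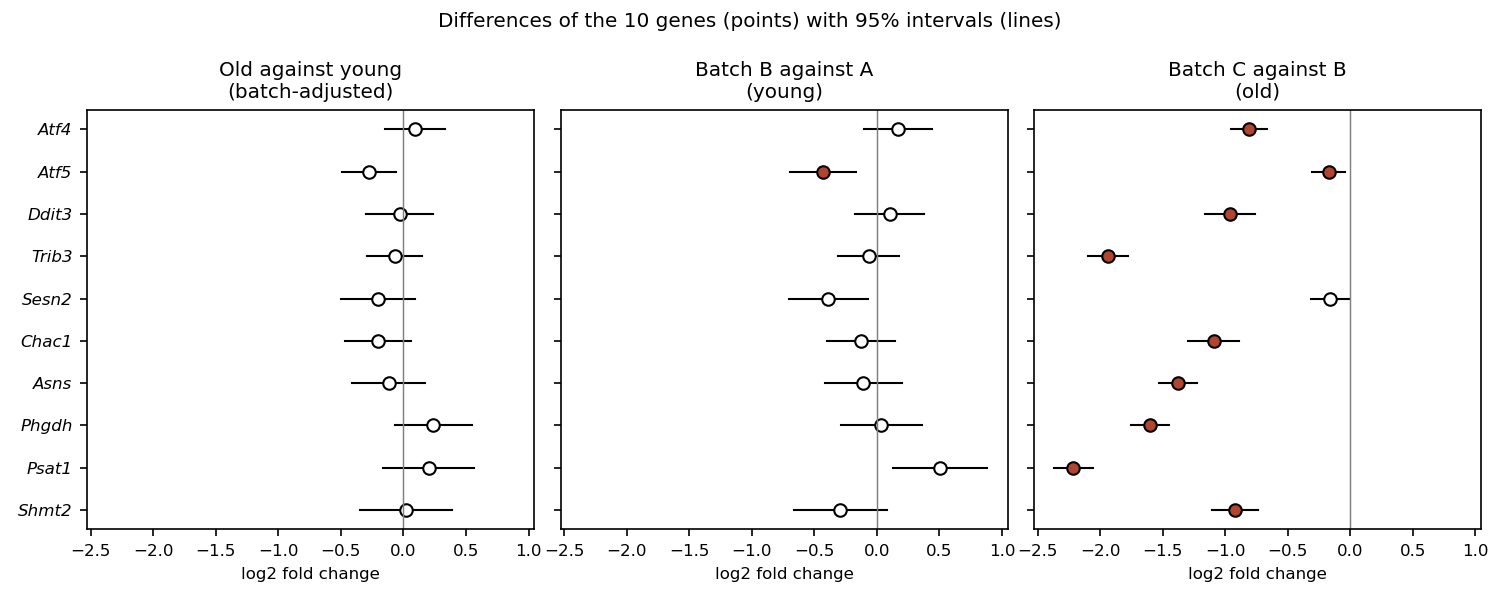
Log2 fold change (x axis) of the 10 genes (rows) in the batch-adjusted age fit, in batch B against batch A among young libraries and in batch C against batch B among old libraries. Points are edgeR estimates, lines are 95% intervals, and filled points passed an adjusted p of 0.05. The age panel holds 0 filled points, the young batch panel 1 (Atf5) and the old batch panel 9, all to the left of 0, where Atf5 turned to 0.022 when libraries were scaled by total counts.

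The next comparison asked how far batches differed at a single age, first among the young libraries. The age fit uses all 11 libraries and so shares samples with both batch comparisons, and their values are set side by side only as such. Between batch B and batch A, 18.1% of 14840 tested genes were called, 9.39% as higher and 8.71% as lower in batch B. Of the 10 genes, 1 was called, Atf5, which was lower in batch B. In batch A, Atf5 was at 447, 475, 477 and 476 CPM, above both young batch B libraries at 356 and 332 CPM. The log2 fold change was -0.43 (SE 0.12, 95% interval -0.70 to -0.17, edgeR adjusted p = 0.0290). This call was lost without batch A young replicate 2, 3 or 4 or batch B young replicate 2 (adjusted p 0.0651 to 0.108), and with total-count scaling or length and GC correction (0.0541 and 0.124).

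Psat1 had the widest difference upward among the 10 genes. It was at 362, 228, 297 and 266 CPM in batch A and 356 and 455 CPM in batch B young libraries. The groups overlapped through batch A replicate 1, and the log2 fold change of 0.51 (SE 0.17, 95% interval 0.13 to 0.88) missed the threshold with an edgeR adjusted p of 0.0584. It passed in DESeq2 (adjusted p = 0.0310), without a filter on low counts (0.00650), with total-count scaling (0.0313), and without batch A young replicate 1 (0.0167) or batch B young replicate 1 (0.0247). Sesn2 was at 114, 121, 124 and 113 CPM in batch A and at 106 and 72.4 CPM in batch B. Both batch B libraries were below all of batch A, but far from each other, and the log2 fold change of -0.39 (SE 0.15) missed the threshold (edgeR adjusted p = 0.0804), which it passed without batch B young replicate 1 (0.00387).

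The remaining 7 genes lay between log2 fold changes of -0.29 (Shmt2, SE 0.17) and 0.17 (Atf4, SE 0.13), with edgeR adjusted p-values of 0.251 to 0.889. For Trib3 (-0.066, but 0.011 with total-count scaling) and Ddit3 (0.10, but -0.18 with length and GC correction) the sign depended on the processing. In the wider list 10 of 74 genes were called, 4 higher and 6 lower in batch B, or 11 higher and 6 lower with total-count scaling. Over all genes the same change of scaling moved the calls from 1393 higher and 1293 lower to 2004 and 1016. Among the called genes, the largest differences upward were in the folate enzyme Mthfd2l (0.69, from 6.66 to 10.7 CPM), in Eif2s1, which encodes eIF2α (0.66, from 69.5 to 108 CPM), and in the aspartyl-tRNA synthetase Dars (0.63, from 101 to 155 CPM). The largest downward among them were in 3 amino acid transporters, Slc7a5 (-0.67, from 423 to 264 CPM), Slc1a5 (-0.60, from 218 to 143 CPM) and Slc38a1 (-0.57, from 48.0 to 32.0 CPM). All 8 dividing-cell markers were called lower in batch B (summed level 122 to 140.0 against 209 to 436 CPM), as were 5 of 10 leukocyte markers (339 to 685 against 589 to 1277 CPM), and their part was not tested.

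Among the old libraries, batch C stood far below batch B. Of the 10 genes, 9 were called and all 9 were lower in batch C (edgeR, adjusted p below 0.05), or 8 of 10 when libraries were scaled by total counts. In this comparison 64.7% of 15651 tested genes were called, 32.1% as higher and 32.6% as lower. The median log2 fold change of the 10 genes was -1.03, while that of all tested genes was 0.023. Total-count scaling raised the median of all genes by 0.19 and moved their calls from 5029 higher and 5104 lower to 6472 and 3825, and under it the median of the 10 genes was -0.83. All 3 batch C libraries lay below both batch B old libraries for all 10 genes. In the wider list this held for 49 of 74 genes, and 20 had all batch C libraries above. The share of all tested genes below batch B old was not counted, so these counts do not set the 10 genes apart from other genes. Both groups came from mice of the same age range, and nothing in the labels gave the difference between the batches.

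Among the 10 genes Psat1 differed most, and the other genes on the way to serine were lower too. Psat1 (GRCm38 chr19:15904678-15947337, minus strand) was at 474 and 452 CPM in batch B old and at 103, 92.7 and 104 CPM in batch C old libraries. The groups were 4.64-fold apart, with a log2 fold change of -2.21 (SE 0.070, 95% interval -2.37 to -2.06, edgeR adjusted p = 8.15e-10), and 3.11% of all tested genes had a lower value. Phgdh (chr3:98313170-98339990, minus strand) was at 316 and 293 CPM in batch B and at 103, 94.1 and 104 CPM in batch C (log2 fold change -1.60, SE 0.069, edgeR adjusted p = 4.97e-09). Psph, the phosphatase of the last step and a gene of the wider list, also fell, from a mean of 52.4 to 17.0 CPM (log2 fold change -1.62, SE 0.091, edgeR adjusted p = 3.17e-08), so that all 3 steps from 3-phosphoglycerate to serine had lower mRNA in batch C. Shmt2, downstream of serine, was at 185 and 155 CPM in batch B and at 95.2, 84.7 and 88.8 CPM in batch C (log2 fold change -0.92, SE 0.083).

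The genes whose promoter windows are printed above fell as well. Trib3 was at 119 and 136 CPM in batch B old and at 33.7, 33.5 and 32.1 CPM in batch C, a 3.83-fold difference (log2 fold change -1.94, SE 0.073, 95% interval -2.10 to -1.78, edgeR adjusted p = 1.89e-09). Asns, which makes asparagine from aspartate and glutamine, was at 286 and 261 CPM in batch B and at 111, 105 and 99.3 CPM in batch C (log2 fold change -1.38, SE 0.070). Chac1 was at 37.3 and 42.9 CPM in batch B and at 17.6, 19.8 and 19.0 CPM in batch C (log2 fold change -1.09, SE 0.093). Psat1, which fell further than these 3, and Phgdh, which fell further than Asns and Chac1 but less than Trib3, held no match to the motif in their windows.

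Atf4 mRNA (chr15:80255184-80257541, plus strand) was 1.76-fold lower, at 275 and 291 CPM in batch B old against 164, 165 and 152 CPM in batch C (log2 fold change -0.81, SE 0.066, 95% interval -0.96 to -0.67, edgeR adjusted p = 5.59e-07). Ddit3 was at 45.3 and 51.1 CPM against 24.7, 26.8 and 22.7 CPM (log2 fold change -0.96, SE 0.090, edgeR adjusted p = 1.96e-06). Atf5 and Sesn2 differed far less than the other 8 genes. Atf5 was at 282 and 282 CPM in batch B and at 251, 249.8 and 249 CPM in batch C, and its log2 fold change, -0.17 ± 0.060 (SE), had an edgeR adjusted p of 0.0258 and became 0.022 with total-count scaling. Its call was also lost without batch C old replicate 1, 2 or 3 (adjusted p 0.0559 to 0.0842) and without a filter on low counts (0.0510). Sesn2 was at 77.9 and 76.1 CPM in batch B and at 73.1, 64.8 and 68.3 CPM in batch C, and its log2 fold change, -0.16 ± 0.070 (SE), had an edgeR adjusted p of 0.0617 and became 0.033 with total-count scaling. With length and GC correction it was -0.50 and passed (adjusted p = 3.26e-05), as it did without batch C old replicate 1 (0.0384).

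Of the wider list, 63 of 74 genes were called, 47 lower and 16 higher in batch C, or 38 lower and 21 higher with total-count scaling. The tRNA synthetases, which charge tRNAs with amino acids, moved together: 17 of 18 were lower and 0 higher (16 lower with total-count scaling), from -1.34 for Gars, with Eprs at -0.099 as the gene not called. Of 9 amino acid transporters, 7 were lower and 1 was higher (5 and 2 with total-count scaling), and of 10 other amino acid synthesis enzymes 7 were lower and 1 higher (7 and 2). The transporter that was higher in batch C was Slc1a5, which carries neutral amino acids, at 0.64. The brakes on translation and TOR were lower in 4 of 5 (3 lower and 1 higher with total-count scaling).

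The 14 other serine and one-carbon enzymes were split, with 5 lower and 5 higher in batch C, or 4 and 6 with total-count scaling. The lower ones held Psph, the mitochondrial folate enzymes Mthfd2 (-1.19), Aldh1l2 (-0.97) and Mthfd1l (-0.35), and the glycine cleavage gene Gcsh (-1.01). The higher ones included Mthfd1 (0.24) and the glycine cleavage genes Gldc and Amt. The glycine cleavage genes were thus split. In batch B old libraries Gcsh was at a mean of 55.2 CPM, beside 0.37 for Gldc and 1.24 for Amt. The group of eIF2α kinases and phosphatases also held Eif2s1, the gene of eIF2α itself. Of its 7 genes 4 were higher and 2 lower, with Eif2s1 among the lower at -1.14. The transcription factors gave 2 higher and 3 lower of 6, and the secreted and other targets 3 higher and 2 lower of 5 (3 and 1, and 3 and 1, with total-count scaling).

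By size, the genes of the wider list furthest down in batch C were Fgf21, a secreted stress hormone (-2.01, SE 0.40, but at only 1.78 and 0.44 CPM on average), the cystine transporter Slc7a11 (-1.82, SE 0.12, from 21.2 to 5.99 CPM) and Ddit4 (-1.78, SE 0.079, from 122 to 35.3 CPM). The genes furthest up were Ppp1r15a, the GADD34 subunit that directs dephosphorylation of eIF2α and is itself known to be induced in this response (2.00, SE 0.094, from 33.9 to 135 CPM), Gldc (1.89, SE 0.51, from 0.37 to 1.39 CPM) and Amt (1.70, SE 0.28, from 1.24 to 4.02 CPM).

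**Figure D3:**
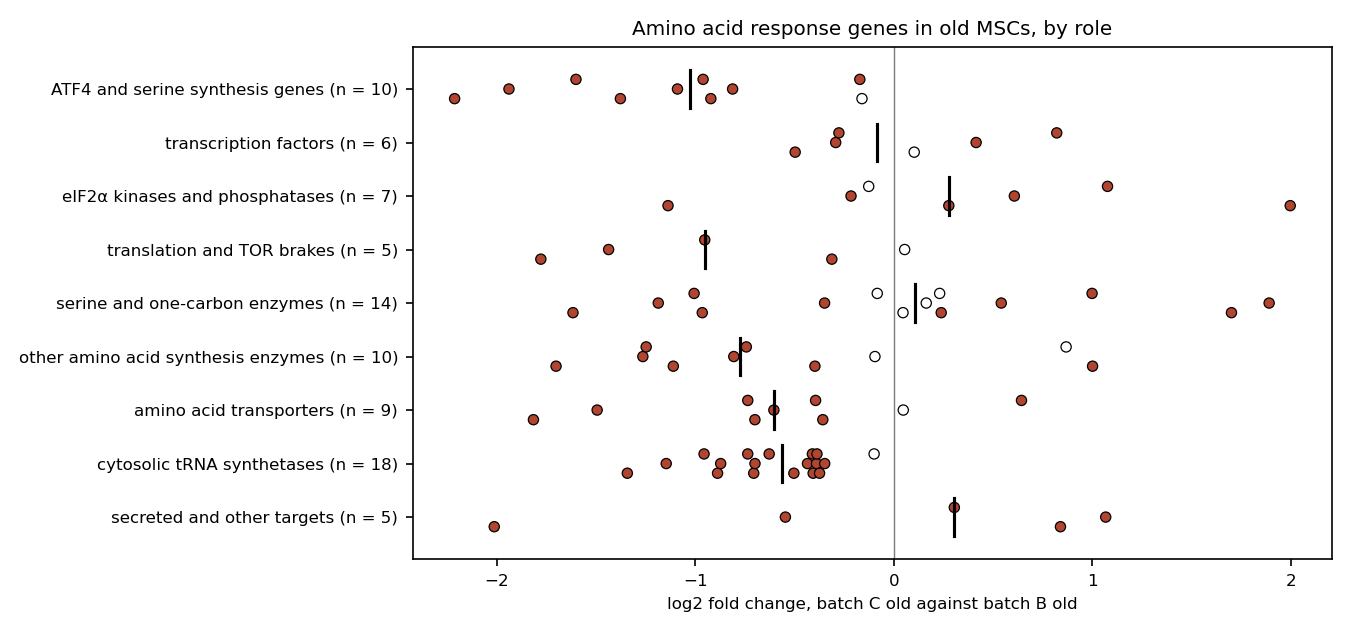
Log2 fold change of batch C old against batch B old libraries (x axis) for the 10 genes and the 74 genes of the wider list, arranged by role (y axis). Each point is a gene, filled where edgeR gave an adjusted p below 0.05, and vertical bars are medians. The tRNA synthetases lie to the left of 0 with a median of -0.57, the 10 genes have a median of -1.03, and the serine and one-carbon enzymes spread from -1.62 to 1.89.

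Cell markers differed in this contrast as well. Of 7 mesenchymal sorting and stromal markers 3 were called higher, among them Pdgfra (1.22), and 2 lower, Ly6a (-1.06) and Col1a1 (-0.27). All 10 leukocyte markers were called lower in batch C, with a median log2 fold change of -2.81 and a summed level of 113 to 133 CPM against 681 to 983 CPM in batch B old libraries. Of 8 dividing-cell markers 6 were called higher, with summed levels of 437 to 507 CPM against 178 to 257 CPM. The ER folding genes, many of them targets of other arms of the unfolded protein response, had summed levels of 3162 to 3285 CPM in batch C and 3156 to 3203 CPM in batch B old. Of these 8 genes, 1 was called higher and 4 lower, and 6 had a negative log2 fold change, with a median of -0.27. The higher one was Hsp90b1 (0.68, from a mean of 843 to 1346 CPM), which weighs heavily in the sum. The endothelial and erythroid lists summed to at most 1.82 and 2.69 CPM in any library. The part of these markers in the difference of the 10 genes was not tested.

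**Figure D4:**
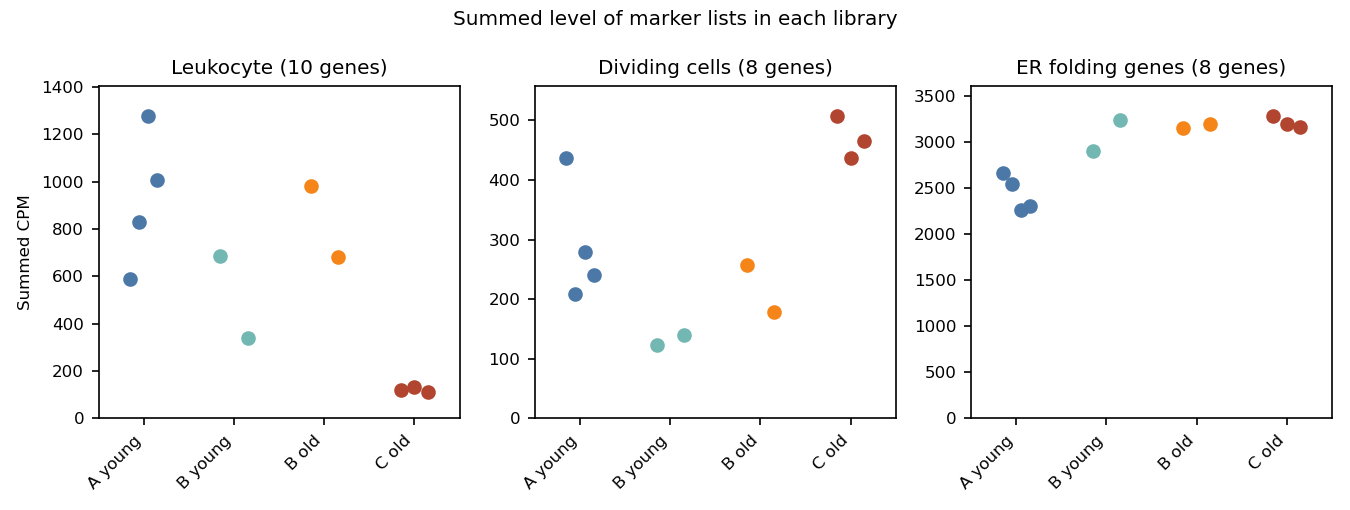
Summed CPM (linear axis from 0) of 10 leukocyte, 8 dividing-cell and 8 ER folding genes in each of the 11 libraries, by age and batch group. Points are libraries. The batch C old libraries have the lowest leukocyte sums, at 113 to 133 CPM, and the highest dividing-cell sums, at 437 to 507 CPM, the latter just above batch A young replicate 1 at 436 CPM.

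For young batch A and old batch C, age and batch change together and cannot be told apart, so only levels are given. For all 10 genes every batch C library lay below every batch A library, which held for 33.7% of all tested genes. The ratio of the batch A mean to the batch C mean ran from 1.49 for Atf4 to 4.30 for Trib3, with Asns at 3.10, Psat1 at 2.89, Chac1 at 2.72 and Phgdh at 2.56. With plain CPM of the total counts, an alternative chosen after seeing the data, all 10 still did not overlap and the ratios ran from 1.16 to 3.35. The counts of these 10 genes made up 0.176% to 0.213% of the library in batches A and B and 0.108% to 0.114% in batch C.

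Within groups the genes also varied together in part. After the mean of each age and batch group was subtracted from log2 CPM, Phgdh and Psat1 had a Pearson r of 0.98 over the 11 libraries, Asns and Shmt2 0.94, Phgdh and Shmt2 0.80, and Atf5 and Sesn2 0.73, whereas Atf5 and Psat1 had -0.81. The median over all 45 pairs was 0.20, so these pairs were at the ends of the range. The values share libraries and scaling, only 7 deviations are free, and 4 of the 11 points come from batch A. There, replicate 1 had the highest and replicate 2 the lowest level of Asns, Phgdh, Psat1 and Shmt2 (384 and 276, 311 and 218, 362 and 228, 268 and 171 CPM). Replicate 1 was also highest and replicate 2 lowest for the dividing-cell sum, at 436 and 209 CPM, and replicate 1 lowest for the leukocyte sum, at 589 CPM. Across groups, which also differ in batch, batch C had the highest dividing-cell sums and the lowest levels of these 4 genes. A link between the marker sums and these genes was not tested.

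**Figure D5:**
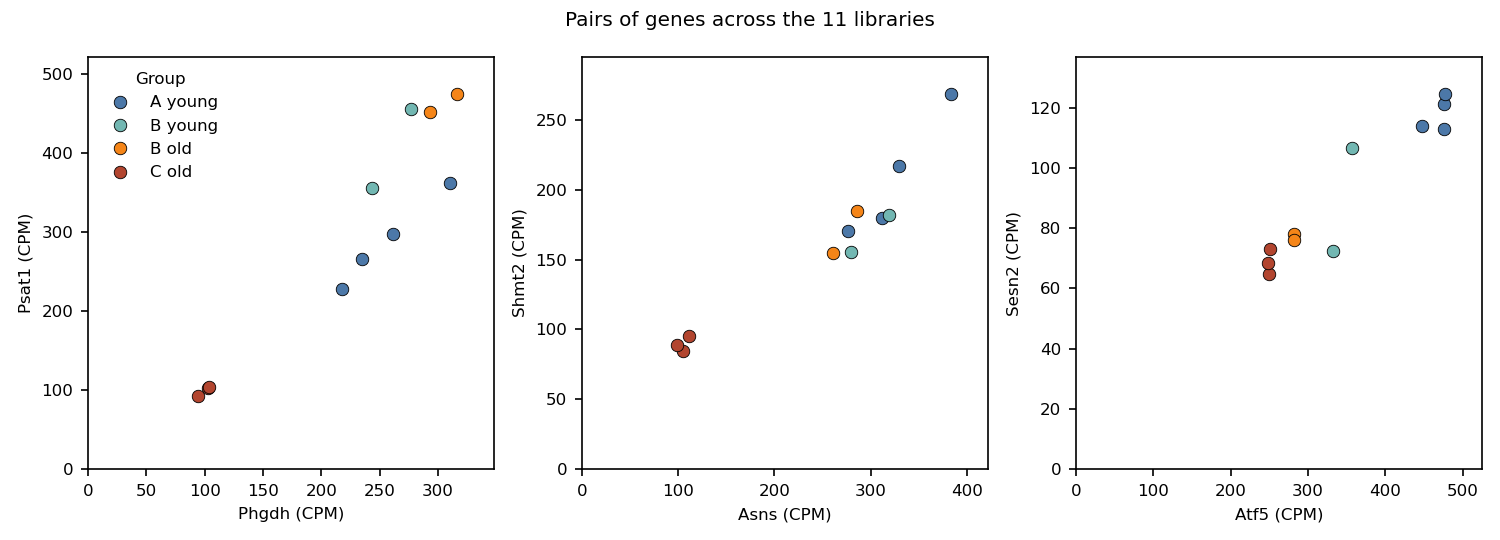
CPM of Psat1 against Phgdh, of Shmt2 against Asns and of Sesn2 against Atf5 (linear axes from 0) in the 11 libraries, coloured by age and batch group. In the Phgdh and Psat1 panel batch B libraries lie above batch A libraries at like Phgdh levels, and the 3 batch C libraries lie apart near 100.3 CPM of Phgdh and 99.7 CPM of Psat1 on average.

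The genes whose within-group pattern was most like the mean of the 10 (each scaled to unit SD), among 10668 genes with at least 5 CPM on average, were Enpp1 (Pearson r 0.97 over 11 libraries), Cop1 (0.96), Ankrd54 (0.95), Socs3, Me2, Rbmx, Wdr62 and Tmed9 (each 0.94). These 8 were picked as the highest of 10668 values over few free deviations, so that their high r follows in part from the choice. None belonged to the wider list, whose 68 genes above this level had a median r of 0.58, beside 0.072 for all candidates. The mean of the 10 also joins genes that varied in opposite directions, such as Atf5 and Psat1 (r -0.81). Shared regulation was not tested. Between batch C and batch B old libraries these 8 did not follow the 10 genes as a group, since Socs3 (0.63), Rbmx (1.17) and Wdr62 (0.77) were higher in batch C, and Enpp1 (-0.43), Cop1 (-0.54), Me2 (-0.56) and Tmed9 (-0.39) were lower. Ankrd54 (0.15) was not called.

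Some of the counts may hold reads of neighbours, since it was not stated whether counting used strand. The annotated gene span of Atf5 overlaps that of Nup62 on the other strand by 571 bases. Nup62 had 393 to 752 counts against 3455 to 8057 for Atf5. The span of Ddit3 shares 68 bases with that of Mars, and the span of Shmt2 shares 32 bases with that of Ndufa4l2, both on the other strand. How much of these overlaps is exon was not computed. A Psat1 pseudogene entry (Gm3329) had at most 1 count in a library, and a further Ddit3 entry was listed at 0 in all libraries.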

How the data were processed

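RNA-seq counts were analysed for 11 libraries of cultured MSCs with age and batch taken from the labels. The authors deposited whole-number counts per Ensembl gene without normalisation. The labels name the build GRCm38 (mm10). The methods of the study, written for an oxygen comparison, name zUMIs, STAR and featureCounts; whether these libraries were made in the same way, and whether molecular identifiers or strand were used, is not stated. Of 28222 genes, 28179 matched GENCODE M21, and 43 did not.

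Tests on counts used edgeR 4.0.16 under R 4.3.3 (quasi-likelihood F test, filterByExpr with a minimum count of 5, TMM factors, two-sided, Benjamini-Hochberg over all tested genes, threshold 0.05). Each SE was the fold change divided by the root of its F value. CPM used TMM-scaled totals, RPKM the summed exon length, and log2 CPM a prior count of 2. With 11969336 to 20315934 counts, 3 counts correspond to 0.148 to 0.251 CPM. Intervals are 95%.

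The alternatives were limma-trend (limma 3.58.1), DESeq2 1.42.0, RLE factors, total-count scaling, no filter or a minimum count of 10, a loess correction for length and GC (span 0.3), no batch term, batch B alone, the replicate number as a block, and leaving out each library. Tests were checked on simulated counts.

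The 10 genes, the lists and the tests were chosen with earlier results of these data known. All 10 were named throughout. Of the wider list, genes past the threshold for age and the 3 largest differences per direction between batches were named. Other genes of that list were named after their values were seen. The values of some genes of the wider list are not reported here. No column of samples was left out.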

Additional observations from a re-analysis of the deposited data

Results flagged for a closer look

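In batch A young libraries, the Atf5 level of replicate 1, 447 CPM, stood apart from the other 3 (475, 477 and 476 CPM). The gap to the nearest value was 0.933 of the whole range, above Dixon's 95% critical value for 4 samples, which chance exceeds in about 1 in 20 groups. Among the 10 genes tested in this group it was the only one to do so. Without this library Atf5 stayed lower in batch B than in batch A young libraries. The same library had the highest levels of Asns, Phgdh, Psat1 and Shmt2 in its group.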

How the results depend on the processing

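Across alternatives, direction and side of the threshold stayed as reported in 193 of 210 fold changes for age, 120 of 140 for batch B against A and 121 of 130 for batch C against B. For age, calls among the 10 genes were 1 with DESeq2, 3 without a batch term and 0 to 2 when leaving out a library. Calls in the wider list were 3 each with DESeq2, no filter, or length and GC correction, 19 without a batch term, 0 in batch B alone and 0 to 12 when leaving out a library. Over all genes, 230 were called higher and 410 lower of 16132 with DESeq2, and 508 and 586 of 28222 with no filter. The calls were 162 and 366 of 16106 with length and GC correction, 1371 and 1270 of 14689 without a batch term, and 47 and 76 of 14810 in batch B alone. Reversals for age were Ddit3 with total counts (0.030) and, without a batch term, Atf4 (-0.22), Phgdh (-0.48), Psat1 (-0.40) and Shmt2 (-0.66). Leaving out a library gave ranges of -0.16 to 0.11 for Ddit3, -0.17 to 0.030 for Trib3, -0.10 to 0.14 for Shmt2 and -0.45 to 0.089 for Sesn2. For batch B against A, calls among the 10 genes were 2 with DESeq2, 2 without a filter, 0 with length and GC correction and 0 to 3 when leaving out a library. In the wider list they were 17 with total counts and 1 to 17 when leaving out a library. Over all genes, 1349 were called higher and 1471 lower of 14840 with DESeq2, and 1602 and 1725 of 23934 without a filter. The calls were 1110 and 852 of 14818 with length and GC correction, and 2004 and 1016 of 14840 with total counts. Reversals were Trib3 with total counts (0.011) and length and GC correction (0.11), and Ddit3 with the latter (-0.18). Leaving out a library gave -0.071 to 0.14 for Phgdh and -0.041 to 0.23 for Ddit3. For batch C against B, 8 to 10 of the 10 genes were called under every alternative run, and with total counts Atf5 (0.022) and Sesn2 (0.033) reversed. The causes were not tested.

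With the replicate block, calls were 0 of 10 and 0 of 74 for age, 0 and 0 for batch B against A, and 8 and 61 for batch C against B. Over all genes, these fits called 102 as higher and 192 as lower of 16839 for age. They called 295 and 434 of 15443 for batch B against A, and 4484 and 4670 of 16068 for batch C against B. Whether the replicate numbers pair the libraries was not settled. Deviations of same-numbered batch B libraries had a correlation of 0.036 across 16132 genes. With 2 libraries per age this is a single value from batch B, which cannot exclude pairing. Depth did not limit the levels, with at least 264 counts per gene and library, but with 2 libraries per age in batch B the age intervals were wide, as for Shmt2 from -0.35 to 0.39 on the log2 scale.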
